A study of Mus musculus with 3 samples.

Results

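The genes described here are the autosomal protein-coding genes of GENCODE M21 whose symbol starts with *Kcn*, the family symbol for potassium channel subunits, with 1 such gene left out. There were 91 of them among 20807 autosomal protein-coding genes. The data were the accessible chromatin peaks of dopaminergic neurons (DNs) of the midbrain ventral tegmental area (VTA), taken from snATAC-seq, in which a transposase cuts open chromatin in single nuclei. The nuclei came from male wild-type C57Bl/6Nl mice, aged 7 weeks for DN replicate 1 and 9 weeks for DN replicate 2, with no genetic or drug treatment, and the DN cluster was picked by the authors from all midbrain nuclei by the activity scores of marker genes. Both libraries were merged in 1 list of 55326 peaks (54570 on autosomes) that gives positions in mm10 and no height or count. The depth behind a peak is therefore unknown, no value below has a spread between replicates, and no test between conditions could be made. A gene without a peak is one where no peak was called, and fewer open nuclei and weaker opening in each nucleus cannot be told apart. Each of 10 marker genes of DNs had between 3 and 31 peaks, where 66.1% of all autosomal protein-coding genes had a peak. Among these markers are *Th*, by which the authors identified the cluster, and *Lmx1b*, *Foxa2*, *Foxa1* and *Slc6a3*, with which they checked it. Peaks at these genes follow in part from that choice. The oligodendrocyte lineage genes *Olig2*, *Sox10* and *Mog*, the astrocyte gene *Aqp4* and the microglial gene *P2ry12* had 0. Peaks were also listed at the microglial gene *Cx3cr1* (9 peaks) and the astrocyte gene *Aldh1l1* (5 peaks), neither of them at the promoter, and at both markers of hippocampal pyramidal neurons, *Camk2a* (6 peaks) and *Wfs1* (1 peak), each with a promoter peak. The part of other cell types in the results was not tested.

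Potassium channels let potassium ions leave the cell and so set the resting potential, end the action potential and time the interval to the next one. Pore-forming subunits fall into voltage-gated, calcium- or sodium-activated, inwardly rectifying and two-pore-domain classes, and auxiliary subunits change their gating and transport. Midbrain dopaminergic neurons fire as slow pacemakers, and A-type, small-conductance calcium-activated and G-protein-gated inwardly rectifying potassium currents are known to shape that firing and its inhibition by dopamine.

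A peak was assigned to a gene when it overlapped the gene body or the 2 kb before it. Because long genes can hold more peaks, each gene was also given a percentile, the share of the 500 genes nearest to it in length that had fewer peaks, plus 50% of those with the same number. For the longest members these 500 genes are only roughly similar, from 308 to 1640 kb for *Kcnma1* (725 kb) and from 313 to 2960 kb for *Kcnip4* (1135.4 kb). The sequences just upstream of 6 members are shown first, because they differ widely in CG content and include promoters with and without a peak. Each line gives the 150 bases before the outer start of the gene in mm10 (GENCODE M21), 5′ to 3′ on the strand of the gene, with every CG dinucleotide in capitals. *Kcnd3*, *Kcnj9* and *Kcnj11* had a peak at this start, and *Kcnh3*, *Kcnj15* and *Kcnj8* had no peak in the gene or the 2 kb before it.

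Kcnd3 promoter, chr3:105452180-105452329, plus strand: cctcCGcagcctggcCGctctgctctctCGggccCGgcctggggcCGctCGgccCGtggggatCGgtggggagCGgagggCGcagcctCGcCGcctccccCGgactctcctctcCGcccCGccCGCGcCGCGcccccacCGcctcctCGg

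Kcnj9 promoter, chr1:172329319-172329468, minus strand: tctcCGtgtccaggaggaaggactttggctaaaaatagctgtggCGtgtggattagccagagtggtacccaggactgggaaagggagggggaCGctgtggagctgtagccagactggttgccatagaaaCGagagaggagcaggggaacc

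Kcnj11 promoter, chr7:46100765-46100914, minus strand: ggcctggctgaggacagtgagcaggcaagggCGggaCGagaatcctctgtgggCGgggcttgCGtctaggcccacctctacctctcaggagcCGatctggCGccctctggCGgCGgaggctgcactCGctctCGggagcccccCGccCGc

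Kcnh3 promoter, chr15:99224711-99224860, plus strand: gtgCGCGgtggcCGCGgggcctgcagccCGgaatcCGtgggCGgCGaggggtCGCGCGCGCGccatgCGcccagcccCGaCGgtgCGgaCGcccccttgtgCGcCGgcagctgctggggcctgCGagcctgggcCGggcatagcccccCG

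Kcnj15 promoter, chr16:95257408-95257557, plus strand: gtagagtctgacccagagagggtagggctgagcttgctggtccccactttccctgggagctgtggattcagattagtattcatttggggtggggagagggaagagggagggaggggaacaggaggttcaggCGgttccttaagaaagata

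Kcnj8 promoter, chr6:142571615-142571764, minus strand: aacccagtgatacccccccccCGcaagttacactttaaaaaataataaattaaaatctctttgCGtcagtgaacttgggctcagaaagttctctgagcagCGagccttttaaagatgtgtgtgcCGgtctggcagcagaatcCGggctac

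The *Kcnd3* window holds 21 CG dinucleotides and the *Kcnj11* window 12, whereas that of *Kcnj9* holds 4 and still lay in a peak. The *Kcnh3* window holds 23, the highest of these 6, without a peak. The windows of *Kcnj15* and *Kcnj8* hold 1 and 5 CG dinucleotides, also without a peak.

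Of the 91 *Kcn* genes, 73 had at least 1 peak (80.2%), beside 66.1% of all autosomal protein-coding genes. In all, 399 peaks were assigned to them, with no peak shared between any 2 of them, over a summed gene length of 10.1 Mb. The peaks were unevenly spread. The 10 members with the most peaks, among them *Kcnma1*, *Kcnd3*, *Kcnab2* and *Kcnn3*, held 212 of the 399 peaks (53.1%), while 21 members had exactly 1 peak, 43 had 2 to 9 and 18 had none. A peak with its centre within 1 kb of a transcription start site (TSS) was found for 56 members (61.5%), beside a background of 57.2%, a similar share.

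At or above the 90th percentile among genes of similar length were 19 members (20.9%), beside 9.95% of all genes. At or below the 10th percentile were 4 members (4.4%), beside 3.36% of all genes. The median percentile of the 91 members was 54.6, with quartiles of 26.6 and 87.9, and that of all genes was 46.2, with quartiles of 27.0 and 74.0. *Kcn* genes therefore lay at the high end more often than other genes, and their middle was close to that of other genes.

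**Figure D1:**
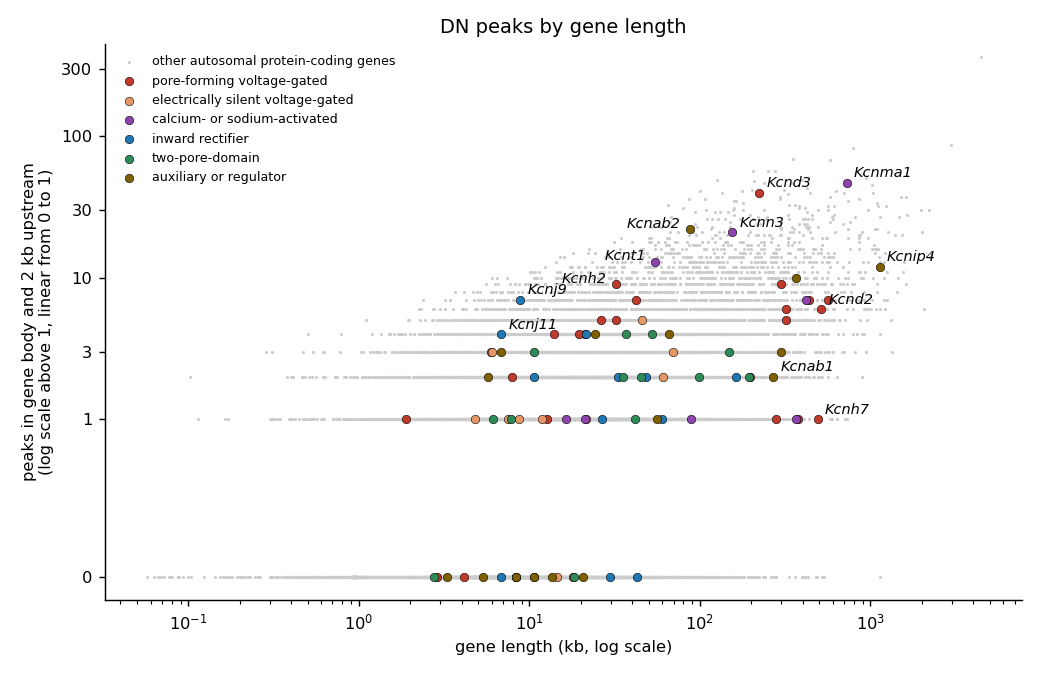
DN peaks assigned to each gene against its length in kb, both on log scales (the y axis is linear from 0 to 1). Grey points are other autosomal protein-coding genes and coloured points are 87 of the 91 *Kcn* genes by class. *Kcnma1* (47 peaks) and *Kcnd3* (40 peaks) stand at the top, and *Kcnh7*, with a length between theirs, has 1 peak.

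The base composition of the genes moved with these counts. Of the members, 36 (39.6%) lie in the quartile of genes with the highest GC content (50.2% to 76.5%), and 25.5% of all genes in that quartile were at or above the 90th percentile, compared with 0.461% in the lowest quartile. When the 500 genes of similar length were taken from the same GC quartile, 12 members were at or above the 90th percentile (background 9.45%), and the median percentile of members was 45.5 beside 47.3 for all genes. Of the 12, 9 belonged to the 19 above, and *Kcna4*, *Kcne2* and *Kcnip4* did not. At the low end, 4 members were at or below the 10th percentile within GC quartiles (4.9% of all genes), but none of the 4 above, which lay from 10.4 to 14.3. They were *Kcnj15* (6.8), *Kcnj5* (9.1), *Kcnk18* (9.7) and *Kcnh3* (9.9), all without a peak. The excess of high counts over the family as a whole thus depended on the genes chosen for comparison, whereas the counts of *Kcnma1* (percentile 99.1), *Kcnd3* (98.7), *Kcnn3* (95.5), *Kcnj9* (95.2) and *Kcnab2* (94.6) stayed high within their GC quartile.

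**Figure D2:**
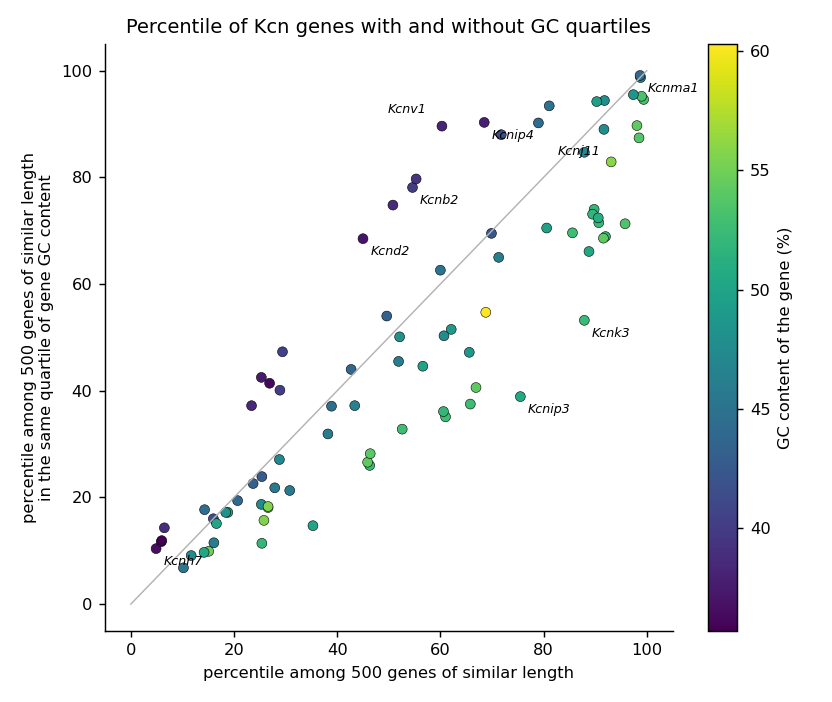
Percentile of 87 of the 91 *Kcn* genes among 500 genes of similar length (x axis) against its percentile when these are drawn from the same quartile of gene GC content (y axis), with points coloured by GC content in % and the line of equality in grey. GC-rich genes such as *Kcnk3* (87.9 to 53.2) lie below the line, and AT-rich genes such as *Kcnip4* (68.5 to 90.3) lie above it.

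Among the 29 pore-forming voltage-gated genes, 26 had a peak (66.1% of all genes), 21 had a promoter peak (57.2%) and 11 were at or above the 90th percentile (9.95%), with a median percentile of 68.8. Within GC quartiles 5 of the 29 were at or above the 90th percentile (9.45% of all genes). *Kcnd3*, which encodes a pore of the A-type current that delays the return to threshold between spikes, had 40 peaks in 222 kb (chr3:105452330-105674002, plus strand), compared with a median of 5 for genes of its length (percentile 98.8). Its paralog *Kcnd2* had 6 peaks in 514 kb (percentile 45.0, 68.5 within its GC quartile and 28.5 with the gene body alone), 3 of them within 2 kb of its start, and 318 kb of its body lay between 1 peak and the next. In *Kcnd3*, 34 of the 40 peaks lay in introns other than the first and the median spacing of peaks in its body was 3.74 kb. The flanks of *Kcnd3*, each taken as long as the gene, held 8 peak centres upstream and 7 downstream, compared with 38 in the body.

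*Kcnb2*, which encodes a delayed rectifier, had 7 peaks in 436 kb (percentile 54.6), of which 1 was at the promoter and none was in the first 159 kb of the body.

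Among *Kcnc* genes, whose channels open at high voltage and allow fast spiking, *Kcnc1* had 7 peaks in 42.2 kb (95.8) and *Kcnc4* had 4 in 21.2 kb (92.0), whereas *Kcnc2* had 2 in 196 kb (23.4). Within their GC quartile *Kcnc1*, *Kcnc4* and *Kcnc2* were at percentiles of 71.3, 68.9 and 37.2, and *Kcnc2* was at 11.1 with the gene body alone and at 36.2 with 5 kb upstream. The 8 *Kcna* genes, which encode low-threshold channels of axons and other membranes, had 16 peaks. *Kcna2* and *Kcna6* had 4 and 5 peaks (91.8 and 91.7), *Kcna1* had 3 (89.8), and *Kcna5* and *Kcna7*, known from heart and skeletal muscle, had 0.

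The *Kcnh* genes, of the ether-a-go-go family, ranged from a percentile of 4.9 to 98.1. *Kcnh2*, which encodes the ERG channel, had 9 peaks in 32.0 kb (chr5:24319589-24351604, minus strand; 98.1), *Kcnh4* had 4 in 19.6 kb (90.7) and *Kcnh6* had 5 in 26.4 kb (90.6). Within their GC quartile these 3 genes were at percentiles of 89.7, 71.5 and 72.4, all below 90. *Kcnh7* (491 kb, 4.9), *Kcnh8* (376 kb, 5.9) and *Kcnh5* (280 kb, 6.5) each had 1 peak, where genes of their length had a median of 7, 6 and 5, and within their GC quartile they were at 10.4, 11.7 and 14.3. The only peaks of *Kcnh7* and *Kcnh5* were at their promoters, and the one of *Kcnh8* was in its first intron. *Kcnh3* was without a peak.

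*Kcnq3*, a subunit of the M-current that damps repeated firing, had 9 peaks in 300 kb (69.9), and *Kcnq1* and *Kcnq5* had 5 and 7 (43.4 and 50.8). The 10 electrically silent genes (*Kcnf*, *Kcng*, *Kcns* and *Kcnv*), whose products form channels only with other subunits, had 18 peaks in all, and *Kcns2* (3 peaks in 6.05 kb) had the highest percentile among them, 90.3. *Kcnv2* was the only one of the 10 without a peak (66.1% of all genes have a peak). The median percentile of the 10 was 60.4, and 43.9 within GC quartiles.

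**Figure D3:**
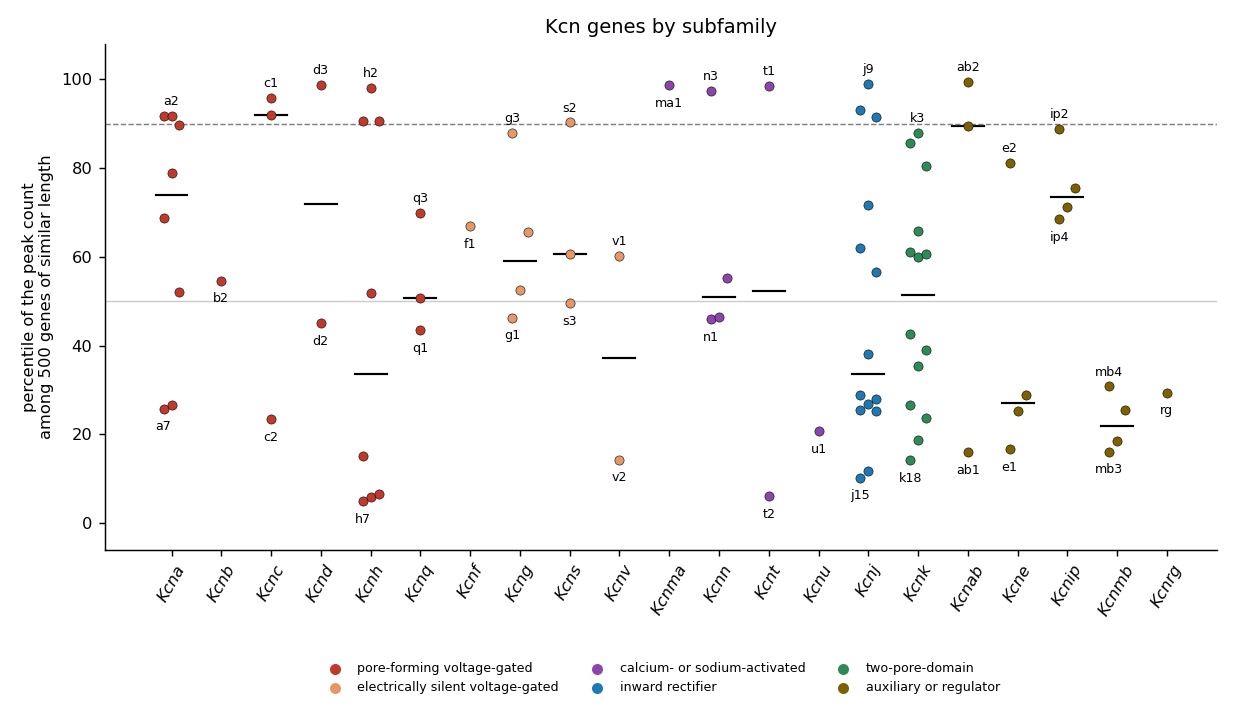
Percentile of the peak count of 87 *Kcn* genes among 500 genes of similar length, by subfamily, with a black line at the median of the genes drawn where these are at least 2. The dashed line marks 90 and the grey line 50, and the highest and lowest genes drawn in each subfamily are labelled without the letters Kcn. Most subfamilies with several genes reach from near 90 or above to below 50.

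All 8 calcium- or sodium-activated genes had a peak (66.1% of all genes), and 3 were at or above the 90th percentile (9.95%), or 2 within GC quartiles (9.45%). *Kcnma1*, the pore of the large-conductance BK channel, had 47 peaks in 725 kb (chr14:23289431-24014491, minus strand), the most of any member, where the 500 genes nearest in length had a median of 7 (98.7). Of these, 32 lay in the first of 3 equal parts of the gene, while the middle part held 8 and the last part 7. No peak was at its outer start. The first start sites of the basic annotation lie 9.6 kb inside the gene, and 2 peaks were centred there, a further start site 211.2 kb inside had 1 peak and one 364.3 kb inside had none. The flanks of *Kcnma1* held 26 peak centres upstream and 6 downstream.

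*Kcnn3*, the small-conductance SK channel gene best known from dopaminergic neurons, had 21 peaks in 155 kb (chr3:89520164-89675132, plus strand; 97.4), compared with a median of 3. Upstream of it, a stretch of the same length held 21 peak centres, compared with 20 in the body and 10 downstream. *Kcnn2*, another SK gene, had 7 peaks in 417 kb (55.3), with 2 at the start site 0.1 kb inside the gene and 2 at that 291.3 kb inside. *Kcnn1* and *Kcnn4* had 1 peak each. *Kcnt1*, which encodes a sodium-activated channel, had 13 peaks in 54.5 kb (98.5, and 87.4 within its GC quartile), whereas *Kcnt2* had 1 in 366 kb (6.0, and 11.9 within its GC quartile). *Kcnu1*, known from sperm, had 1 peak.

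**Figure D4:**
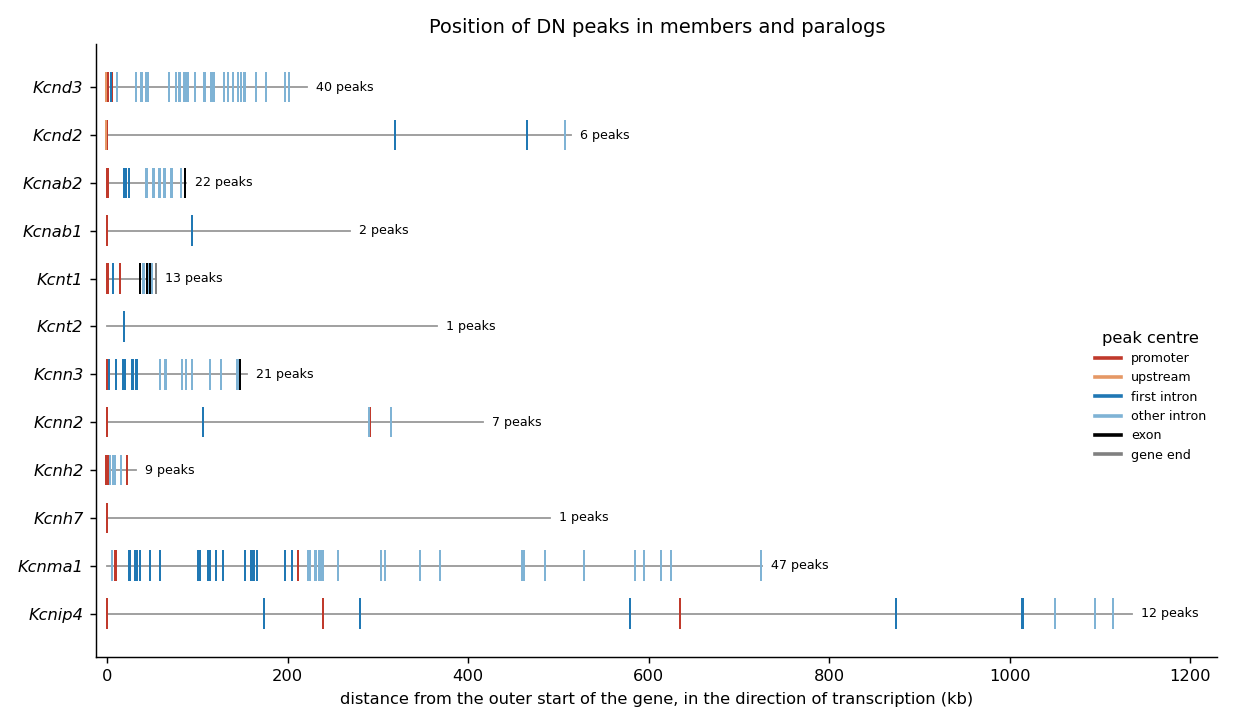
Position of the centre of each DN peak along 12 members, in kb from the outer start of the gene in the direction of transcription, with grey lines for gene bodies and colours for the position class. *Kcnd3*, *Kcnab2*, *Kcnt1*, *Kcnn3* and *Kcnh2* carry 9 to 40 peaks, and a longer paralog drawn under each carries 1 to 7.

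Inwardly rectifying channels pass current more easily into the cell than out of it. Of the 14 *Kcnj* genes, 9 had a peak (66.1% of all genes) and 6 had a promoter peak (57.2%), and their median percentile was 33.6. *Kcnj9*, a subunit of the G-protein-gated channels that dopamine D2 autoreceptors open, had 7 peaks in 8.82 kb (chr1:172320501-172329318, minus strand), where genes of its length had a median of 1 (99.0). These 7 peaks comprised 1 at the promoter, 3 in exons, 2 in an intron and 1 across the gene end. The first peak centre after that of the promoter lay 2.96 kb inside the gene. Not all subunits of this channel type were counted. Among the others, *Kcnj3* had 2 peaks in 162 kb (26.9, and 41.4 within its GC quartile), both at its start sites. *Kcnj5* had 0 in 29.6 kb (11.7). *Kcnj10*, a glial channel whose gene starts 11.9 kb from that of *Kcnj9*, had 2 peaks in its first intron and none at its start, and the 1 peak centre between the genes was the promoter peak of *Kcnj9*.

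ATP-sensitive channels pair a *Kcnj* pore with a sulfonylurea receptor, and the genes of each pair are neighbours. The neuronal and pancreatic pair, *Kcnj11* (4 peaks in 6.81 kb, 93.1) and *Abcc8* (6 peaks in 75.5 kb, 91.8), lies 3.76 kb apart on chromosome 7, and the 1 peak centre between them was the promoter peak of *Kcnj11*. The vascular pair, *Kcnj8* (0 peaks) and *Abcc9* (1 peak in 114 kb, 17.0), lies 16.2 kb apart on chromosome 6 with no peak between. Within the GC quartile, the percentiles were 82.9 for *Kcnj11* and 52.6 for *Abcc8*. The members *Kcnj15* (42.7 kb, 10.2), *Kcnj13* and *Kcnj14* had no peak either.

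None of the 14 two-pore-domain *Kcnk* genes, which carry leak currents, reached the 90th percentile (9.95% of all genes), a count near that background, and 11 had a peak (66.1%). *Kcnk3*, an acid-sensitive leak channel, had the highest percentile (4 peaks in 37.1 kb, 87.9), which was 53.2 within its GC quartile, and *Kcnk18*, known from sensory neurons, had no peak in 18.2 kb (14.2). *Kcnk6* and *Kcnk7* also had none. Of 3 mechanically gated leak channels, *Kcnk4* had 3 peaks (85.6), 2 of them at the start of its neighbour *Catsperz*, and *Kcnk10* and *Kcnk2* had 3 and 2 (42.7 and 23.7).

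The 16 auxiliary subunit and regulator genes had 63 peaks, of which *Kcnab2* held 22 in 87.1 kb (chr4:152390742-152477871, minus strand; 99.4). It encodes a cytoplasmic beta subunit of voltage-gated channels. Of its 22 peaks, 2 also lay at the start of *Nphp4*, and its flanks held 15 and 23 peak centres compared with 21 in the body. *Kcnab3* had 3 peaks in 6.79 kb (89.5) and *Kcnab1* 2 in 269 kb (16.0). The 4 *Kcnip* genes, which encode calcium sensors that bind the pores of A-type channels, all had promoter peaks (57.2% of all genes) and lay between 68.5 and 88.8. *Kcnip4*, the longest member with 1135.4 kb, had 12 peaks (68.5, or 53.0 among the 100 genes nearest in length), and of its 4 groups of start sites those at 0, 239.2 and 635.4 kb had 1 peak each and that at 925.2 kb had none. *Kcnip3* had 4 peaks in 65.6 kb (75.5, and 38.9 within its GC quartile). Among *Kcne* and *Kcnmb* genes, 3 of 8 had a peak (66.1% of all genes), with *Kcne2* highest (2 peaks, 81.1). *Kcnrg*, a regulator gene, had none.

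Of a list of 13 members known from dopaminergic neurons, all had a peak (66.1% of all genes), 12 had a promoter peak (57.2%), and 9 were at or above the 90th percentile (9.95% of all genes), with a median percentile of 97.4. Within GC quartiles this count was 7 (background 9.45%) and the median 90.3. *Kcnip3*, *Kcnip4* and *Kcnn2* were among the members of this list below 90. Of 18 members known mainly from other tissues or cells, 10 had a peak (66.1% of all genes), 5 had a promoter peak (57.2%), none was at or above the 90th percentile and the median was 28.4. Within GC quartiles 1 member of this list, *Kcne2* (93.4), was above 90 and the median was 25.0. By length alone, the highest in this list were *Kcne2* at 81.1, *Kcnj10* at 62.1 and *Kcnk16* at 61.0. Within their GC quartile *Kcnj10* was at 51.5 and *Kcnk16* at 35.1. Both lists were drawn up with earlier results of these data known, so their difference is a description.

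A further list of 17 genes whose products bind, place or modify potassium channels gave 165 peaks at 16 genes (66.1% of all genes have a peak), and 6 genes were at or above the 90th percentile (9.95%). Within GC quartiles 5 were (9.45% of all genes), with *Cntn2* at 84.6 and *Abcc8* at 52.6. *Dpp6*, whose product is an auxiliary subunit of A-type channels, had 54 peaks in 910 kb (99.4), whereas its paralog *Dpp10* had 9 in 724 kb (59.1, and 82.7 within its GC quartile). The others were *Dlg4*, a scaffold of synapses (13 peaks in 30.6 kb, 99.8), *Ank3*, an organiser of the axon initial segment (41 in 629 kb, 98.0), *Lrrc26*, a BK channel subunit (3 in 1.27 kb, 97.2), *Cntn2*, an axonal adhesion molecule (8 in 33.8 kb, 96.4), and *Abcc8*. *Cntnap2* had 14 peaks in 2244.9 kb (74.3, and 93.4 within its GC quartile), and *Lrrc52* was the only one of the 17 without a peak.

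Promoters with a peak differed in composition from those without. In the 300 bases from 250 before to 50 after the outer start, the 49 members with a peak there (53.8% of 91, background 54.2%) had a median of 18 CG dinucleotides, with quartiles of 9 and 27, and the 42 without had 6, with quartiles of 3.25 and 14.5. The corresponding medians for other genes were 20 and 3. The ranges of members overlapped, from 3 to 51 with a peak and from 0 to 40 without. *Kcnh3* (40) and *Kcnk6* (30) had the most CG dinucleotides without a peak in the gene, whereas *Kcna2* (4) and *Kcnj9* (6) had few and had a peak.

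**Figure D5:**
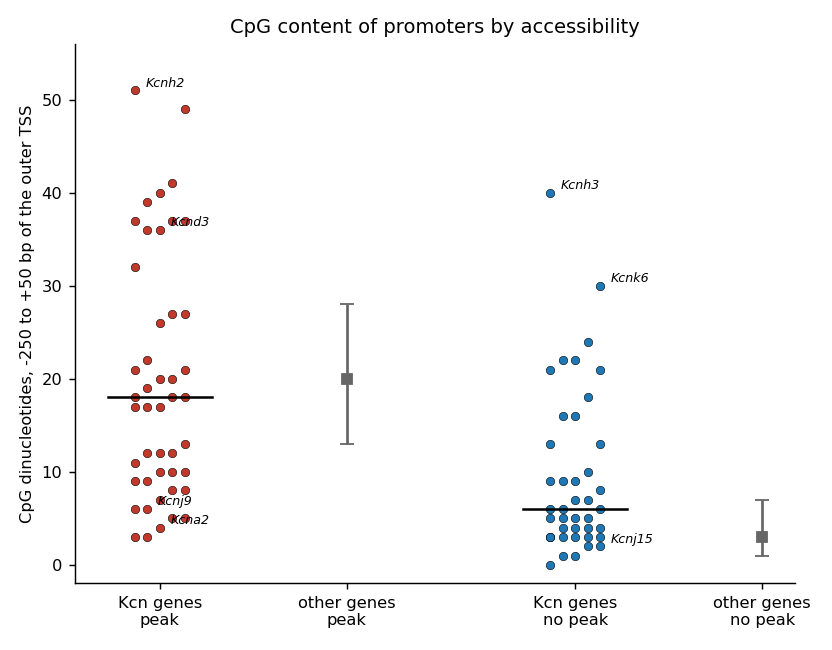
CG dinucleotides from 250 bases before to 50 bases after the outer start of each gene, for *Kcn* genes with a peak centred within 1 kb of that start (46 red points) and without (41 blue points), with black lines at the medians of 18 and 6 of all 49 and 42 such members. Grey squares and bars give the median and quartiles of other genes, with medians of 20 and 3.

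Several members had a peak at only some of their annotated starts. Start sites less than 1 kb from the one before were joined, which gave 125 groups in the 91 members, of which 68 had a peak. Of the 28 members with more than 1 group, 9 had a peak at every group, 13 at some and 6 at none. Such groups were not counted for other genes, so no background stands beside these counts. In *Kcnk2*, the peak lay at the group 58.1 kb inside the gene and not at the outer start, and in *Kcnab2* the outer group had 3 peaks and that at 29.0 kb had none. *Kcnip1*, *Kcnip2*, *Kcnk10*, *Kcnk2*, *Kcnma1*, *Kcnn1* and *Kcnu1* had promoter peaks, but none at the outer edge of the gene record. In *Kcnip1* and *Kcnma1* that edge is not a start site of the basic annotation. Their first groups of start sites lie 149.6 and 9.6 kb inside the gene record and had 1 and 2 peaks.

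By position, 24.6% of the peaks of members were at promoters, 30.8% in the first intron, 33.3% in other introns, 8.02% in exons, 2.51% upstream and 0.752% across a gene end. For other genes, the shares were 38.9%, 14.0%, 34.9%, 7.41%, 3.95% and 0.774%. The first-intron share of members was 29.3% without *Kcnma1*, which held 20 of these 123 peaks. *Kcnma1* was not the largest single contributor to them, and no other member was left out. These shares are not matched for gene length, and the contrasts were smaller among genes over 100 kb, where 31.3% of the peaks of members lay in the first intron (19.8% for other genes) and 16.4% at promoters (19.9%). In the 22 members over 100 kb, 44.8% of peaks in the body lay in the first of 3 equal parts, 28.2% in the middle and 27.1% in the last, beside 36.1%, 28.8% and 35.1% for other genes of over 100 kb. Without *Kcnma1* the share in the first part was 36.6%, close to that of other genes. Peaks within 1 kb of the start of another protein-coding gene made up 1.0% of member peaks and 10.5% of those of other genes.

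Some members lie close together. On chromosome 3, *Kcna3*, *Kcna2* and *Kcna10* follow each other with gaps of 63.1 and 68.0 kb that held 4 and 1 peak centres, and the genes had 1, 4 and 1 peaks. On chromosome 6, *Kcna5*, *Kcna1* and *Kcna6* had 0, 3 and 5 peaks, with 5 and 2 peak centres between them. *Kcne2* and *Kcne1* had 2 and 0 peaks with 6 between them in 47.9 kb. *Kcnj5* and *Kcnj1*, 28.1 kb apart with opposite strands, had 0 and 1 and none between them. *Kcnmb1* lies within *Kcnip1* on the other strand and held none of its 10 peaks. *Kcnj16* and *Kcnj2* had 1 and 2 peaks, and the 2 peak centres between them were those of *Kcnj2*. *Kcnk5* and *Kcnk16* had 1 each, with 2 peak centres between them, of which 1 was the promoter peak of *Kcnk5*.

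A set of 9 short sequence motifs were searched on both strands of the 399 peaks: TGTTTAC (forkhead factors), AAAGGTCA (the NBRE of nuclear receptors such as *Nr4a2*), TAATTA (homeodomain), GGATTA (Pitx type), TGANTCA (AP-1), TGACGTCA (CRE), CAGATG (E-box), CCANNAGGG (part of the CTCF motif) and GCGTGGGCG (Egr). Away from promoters, 37.8% of 299 member peaks held the E-box, 16.7% AP-1, 13.4% the Pitx type, 11.7% the CTCF part, 7.69% forkhead, 6.69% homeodomain, 3.01% the NBRE and 1.67% the CRE. The same shares in peaks of other genes away from promoters were 37.9%, 14.2%, 15.6%, 12.7%, 8.57%, 8.21%, 4.81% and 0.772%. In 98 promoter peaks of members, the E-box was found in 26.5% (19.4% in other promoter peaks), the CTCF part in 12.2% (10.2%), forkhead in 6.12% (3.62%), the Pitx type in 4.08% (8.59%), AP-1 in 2.04% (6.85%), the NBRE and the CRE in 1.02% each (1.41% and 3.13%) and the homeodomain letters in none (3.38%). Egr was found in 0 of 399 peaks, which allows a share of up to 0.752% (3 peaks of 399), beside 0.659% of all other autosomal peaks. Peaks of members away from promoters had a median GC content of 50.8%, beside 50.2% for those of other genes. The CRE share rests on 5 peaks and the NBRE share on 9, and over all 399 member peaks the CRE share was 1.5%, the same as in all other autosomal peaks. No difference in these shares was tested.

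Within the family, *Kcnma1*, with the most peaks of any member, also had the largest number with AP-1 letters, 13 of 44 away from promoters (29.5%). *Kcnd3* had 5 of 36 (13.9%) and *Kcnn3* 4 of 20 (20.0%). Some members with few peaks, such as *Kcnb2* and *Kcnq5*, had a higher share than *Kcnma1*. With the usual C or G at the middle position, the count in *Kcnma1* was 9 of 44 (20.5%), beside 9.31% in peaks of other genes. Without *Kcnma1*, 14.5% of member peaks away from promoters held TGANTCA. The motif was singled out after its values were seen. The 9 windows are printed because they show the letters in place, each with 25 bases on either side of the middle base, 5′ to 3′ on the strand of *Kcnma1* (mm10), with TGACTCA or TGAGTCA in capitals.

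Kcnma1 window, chr14:24008501-24008551, minus strand: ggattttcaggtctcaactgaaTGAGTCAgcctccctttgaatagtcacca

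Kcnma1 window, chr14:23983093-23983143, minus strand: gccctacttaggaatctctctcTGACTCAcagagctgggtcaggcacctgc

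Kcnma1 window, chr14:23981085-23981135, minus strand: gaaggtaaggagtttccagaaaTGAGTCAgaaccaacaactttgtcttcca

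Kcnma1 window, chr14:23977946-23977996, minus strand: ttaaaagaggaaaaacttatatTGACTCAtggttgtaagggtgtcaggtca

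Kcnma1 window, chr14:23911292-23911342, minus strand: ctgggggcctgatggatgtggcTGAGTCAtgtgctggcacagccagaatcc

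Kcnma1 window, chr14:23885711-23885761, minus strand: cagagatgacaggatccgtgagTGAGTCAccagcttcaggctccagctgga

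Kcnma1 window, chr14:23783587-23783637, minus strand: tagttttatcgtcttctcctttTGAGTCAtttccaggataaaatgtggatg

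Kcnma1 window, chr14:23758520-23758570, minus strand: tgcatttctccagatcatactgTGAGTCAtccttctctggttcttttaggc

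Kcnma1 window, chr14:23645580-23645630, minus strand: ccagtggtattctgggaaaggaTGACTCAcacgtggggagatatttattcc

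These 9 peaks lay from 6.03 to 368.93 kb inside the gene record, 4 of them within its first 36.67 kb. The first one precedes the start sites of the basic annotation, the others lie in introns, and no window overlaps an exon. Windows from 1 peak each of *Kcnd3* and *Kcnn3* follow, chosen as the intronic peaks with the most different motifs that lie close together, with all of their motif letters in capitals.

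Kcnd3 intron, chr3:105495167-105495272, plus strand: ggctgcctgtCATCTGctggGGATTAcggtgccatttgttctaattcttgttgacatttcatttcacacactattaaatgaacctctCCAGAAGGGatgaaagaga

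Kcnn3 intron, chr3:89530437-89530585, plus strand: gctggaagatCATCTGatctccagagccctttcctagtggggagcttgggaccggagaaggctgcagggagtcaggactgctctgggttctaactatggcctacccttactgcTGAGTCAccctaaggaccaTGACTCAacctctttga

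The *Kcnd3* window lies 43.09 kb inside the gene and holds the E-box (as CATCTG), the Pitx-type letters and the CTCF part. The *Kcnn3* window lies 10.35 kb inside the gene and holds the E-box and a pair of AP-1 matches. In *Kcnd3*, the CTCF part was found in 8 of 36 peaks away from promoters (22.2%), beside 12.7% in other genes, and the NBRE in 1 of 36. A match is a run of letters and does not show that a factor binds there.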

How the data were processed

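The authors made snATAC-seq libraries from VTA nuclei, mapped reads to mm10 with Cell Ranger ATAC, and used ArchR to filter nuclei, remove doublets, choose the DN cluster and call reproducible peaks on pseudobulk replicates by iterative overlap merging. The deposited list holds chromosome, start and end per peak, with no other value. For their further analyses the authors kept only peaks found in a minimum share of nuclei. Whether the deposited list had been filtered in this way is not stated. Starts were read as counted from 0 and are printed from 1, and every peak is 500 bp wide.

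Peaks were assigned by an overlap of at least 1 bp, using GENCODE M21. Percentiles used the 500 genes nearest in log length that are not members, with ties counted by 50%. Sequence was read from GRCm38.p6. The first intron is that of the longest transcript of the basic annotation, and other positions in the gene record outside exons and promoters were counted with other introns. Counts, percentiles and motif searches were tested on simulated data. Members and lists were chosen with earlier results of these data known. Named were the members with the highest percentiles or the most peaks, those over 20 kb with none or with the lowest percentiles, the extremes of each subfamily, neighbours and the lists, and other members to complete a subfamily. One autosomal *Kcn* gene was left out, 4 members are in the counts but are not reported here singly or drawn, and the mES cell sample was not used. Flanks, the leaving out of members and the C or G form of AP-1 were added after seeing the data. No test was made because the list pools both libraries, and binomial intervals of gene shares are not given because genes are not replicates. Versions were matplotlib 3.10.9 for plots, scipy 1.17.1, pandas 2.3.3 and numpy 2.4.6 for tables, under Python 3.11.15.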

Additional observations from a re-analysis of the deposited data

How the results depend on the processing

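Peaks were also counted by their centre, in the gene body alone, with 5 kb upstream or without peaks at the start of another gene. The number of members with a peak was then 72 or 73, beside 59.4% to 67.5% of all genes. The lowest of these background shares was that without peaks at the start of another gene. The number of assigned peaks ranged from 376 to 408. A promoter peak was found for 49 to 58 members under other distances and start sites, beside 54.2% to 58.8% of all genes. The median percentile was 52.8 to 59.7 under these windows and with 100 or 1000 genes of similar length, beside 45.6 to 46.5 for all genes. At or above the 90th percentile were 16 to 22 members, beside 9.81% to 10.4% of all genes. With similar genes taken only from those with a promoter peak the median was 33.0 (20.9 for all genes), and 11 members instead of 19 were at or above the 90th percentile (5.95% of all genes), because genes without peaks are then left out of the comparison. With similar genes from the same GC quartile, 12 members were at or above the 90th percentile and the median was 45.5. Of 488 percentiles of 61 named members under 8 alternatives, 66 moved by 10 points or more, and 18 members had no such move. Limiting motif searches to the central 200 bp lowered the shares, since less sequence was searched, from 13.0% to 6.77% of all 399 member peaks for AP-1 (5.38% in other peaks) and from 7.27% to 3.01% for forkhead (3.54%).

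No paired analysis was possible because the deposited list pools both DN replicates, so neither was left out. The list gives no depth, and weak peaks below the calling limit are not in it. Percentiles of genes with 0 or 1 peak rest on many ties.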
